A study of Mus musculus with 4 samples.

Results

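CTCF summits at the 3' ends of protein-coding genes were described in mouse heart. A summit, the position of highest signal within a peak, was kept when it lay inside an annotated 3' UTR or within 1 kb downstream of the gene's end, more than 1 kb from every annotated transcription start site (TSS) and outside coding sequence. Of the 54309 summits in the authors' conservative list, 1676 met this rule, a share of 3.09% (exact binomial 95% interval 2.94 to 3.23). They comprised 914 summits in 3' UTRs and 762 downstream of a gene end. Beyond the authors' own threshold, by which a peak enters that list, the rule used position only.

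The hearts came from adult female B6CASTF1/J mice aged 2 months, the first-generation offspring of C57BL/6J and CAST/EiJ parents, and the labels name no further allele or treatment. Chromatin immunoprecipitation and sequencing (ChIP-seq) with a CTCF antibody was done on 2 pools, G and H, each joining 2 heart biosamples and sequenced as 2 technical libraries. The series thus has 1 group and 2 biological replicates, with no contrast of conditions. Values of single hearts are lost in the pools, whole tissue mixes the cell types of the heart, and the lists do not separate the alleles of the cross. Read totals are not part of the lists, which leaves the depth unknown. Coordinates are on mm10, and intervals cover counting error only.

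CTCF is a zinc-finger protein that binds a long, asymmetric DNA motif and halts the cohesin complex as it extrudes chromatin loops, so the direction of its motif matters for which loops form. At the 3' end of a gene the transcript is cleaved and polyadenylated, and RNA polymerase II runs on before it terminates. In convergent genes the polymerases of both genes travel towards each other, and the stretch between their ends is transcribed from either side.

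The 12-base CTCF core is shown for selected summits, because the same core in different words went with very different signals. Each line gives the reference sequence (GRCm38.p6, which derives from C57BL/6J) read 5' to 3' on the strand that carries the core, with 4 bases on either side and the core in capitals. The CAST/EiJ sequence was not read. The first 4 lie at strongly bound gene ends of the heart, of a ribosomal protein gene and of a convergent pair:
Pln: ttaaCCACCAGGGGGCagac
Myl2: acaaCCACTAGGGGGCagtg
Rps19: tcggCCACTAGGTGGCagct
Map1lc3b and Zcchc14: tctgCCACAAGGGGGCagta
The next 2 carry the commonest word of the core among gene-end summits, at positions that are soft-masked, that is, marked as repeats in the assembly:
Cdh5: aaggCCAGAAGAGGGCatcg
Cspg4: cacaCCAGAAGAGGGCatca
The cores of Cdh5 and Cspg4 have the same 12 bases. The cores of the first 4 differ from them and from one another, and each matches the CTCF core without a mismatch.

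Pln encodes phospholamban, the inhibitor of the calcium pump of the cardiac sarcoplasmic reticulum. Its summit at chr10:53346421-53346969 lay 698 bp past the gene end, with a signal of 805 (pool G 431, pool H 379), which ranked 41 among the 1676. Myl2 encodes the regulatory myosin light chain of the ventricle. Its summit at chr5:122114147-122114603 lay 926 bp past the end, with a signal of 662 (pool G 339.8, pool H 328), which ranked 429. Both sites were above the median of gene-end summits in each pool (pool G 228, pool H 187). By contrast, the site downstream of Cspg4, which encodes the pericyte proteoglycan NG2, at chr9:56900242-56900661 had a signal of 96.3 (pool G 52.9, pool H 35.5). The site downstream of Cdh5, the endothelial cadherin gene, at chr8:104144628-104144948 was intermediate, at 333 (pool G 188, pool H 149.6). Signal is the caller's number for a peak as the authors deposited it, with no unit stated, and comparisons of it stay within a list.

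The word shared by Cdh5 and Cspg4 was found at 151 of the 591 gene-end summits that had an exact core and were read for words (25.5%), and at 6610 of 17456 such summits in the whole list (37.9%). Of those 151, 142 were soft-masked. Their median signal was 144. The word of Pln, CCACCAGGGGGC, was found at 45 gene-end summits, none of them soft-masked, with a median signal of 707. CCAGCAGAGGGC, the second commonest word, had 46 summits, 15 of them soft-masked, and a median signal of 523. Gene-end summits thus held the word of lowest median signal among these 3 less often than the list as a whole. Over all members, 17% of summits were soft-masked (95% interval 15.2 to 18.9), with 12.7% in 3' UTRs and 22.2% downstream, against 25.3% of the 40734 summits elsewhere, that is, outside gene ends, promoters (1 kb around a TSS) and coding sequence. The share over the whole list was 21.8%, which lies within the interval of downstream summits (19.3 to 25.3). How much of the searched sequence was itself soft-masked was not measured.

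With at most 1 mismatch allowed within 100 bp of the summit, the core was found at 66.0% of all 54309 summits. It was found at 1212 of the 1676 gene-end summits, 72.3% (70.1 to 74.4), and at 72.2% of the summits elsewhere (71.7 to 72.6). The overall shares did not differ beyond counting error. In windows 1 kb away from the gene-end summits the share was 6.09%. The core was found at 69.6% of 3' UTR summits (66.5 to 72.6) and at 75.6% of downstream summits (72.4 to 78.6). An exact core was found at 31.5% and 41.6% of them, against 37.6% elsewhere. The median distance of the core's centre from the summit was 6.5 bp in both places. In the lowest decile of the whole list by signal, 43.8% of the gene-end summits and 54.9% of those elsewhere had a core, in the second decile 57.5% and 65.1%, and in the highest 83.3% and 85.2%.

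Gene ends held more CTCF summits per base than the rest of the non-promoter genome. There were 30.4 summits per Mb of 3' UTR searched (exact Poisson 95% interval 28.5 to 32.4; 30.1 Mb) and 42.9 per Mb of downstream sequence (39.9 to 46.0; 17.8 Mb). Elsewhere there were 16.9 per Mb (16.7 to 17; 2414 Mb). The ratio to elsewhere was 1.8 for 3' UTRs (1.69 to 1.92) and 2.54 for downstream sequence (2.36 to 2.73), and downstream sequence held 1.41 times the density of 3' UTRs (1.28 to 1.55). Whether the density followed gene density, base composition or mappability was not tested. The median GC content over 200 bp was 49.8% at gene-end summits and 46.8% at summits elsewhere.

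The enrichment did not peak at the gene end itself. Over all genes, with bases and summits counted for every gene they belonged to, the density was 36.4 per Mb from 5 to 2 kb before the end (34.6 to 38.3), 34.0 in the last 2 kb (32.0 to 36.1), 43.7 in the first 2 kb after it (41.6 to 45.8) and 41.8 from 2 to 5 kb after it (40.1 to 43.5). The change lay at the end: the last 500 bp of the gene held 32.3 per Mb (28.6 to 36.4) and the first 500 bp beyond it 44.3 (40.2 to 48.7). It was clear for genes with neither a convergent nor a tandem (same-strand) neighbour within 5 kb, at 25 (21.1 to 29.3) and 38.1 (33.6 to 42.9). Genes with a convergent neighbour had 50.8 (40.9 to 62.5) and 58.7 (48.5 to 70.6), and those with a tandem neighbour only 47.0 (32.9 to 65.1) and 63.2 (46.9 to 83.3), with overlapping intervals in both classes. Sequence inside and outside genes was searched alike, with promoters and coding sequence removed from both.

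**Figure D1:**
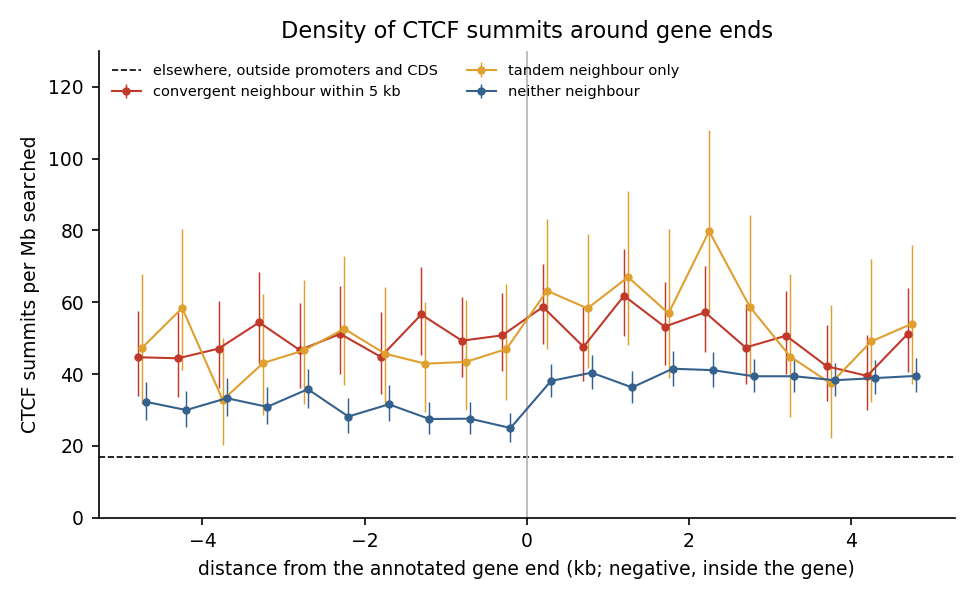
CTCF summits per Mb searched (vertical axis) in 500 bp bins by distance from the annotated gene end in kb (horizontal axis), for genes with a convergent neighbour, with a tandem neighbour only, or with neither. Bars are exact Poisson 95% intervals and the dashed line is the 16.9 per Mb found elsewhere. Genes with neither neighbour step from 25 in the last bin before the end to 38.1 in the first bin after it, while genes with a neighbour lie higher in most bins; the tandem class is lower than the class with neither in 2 bins, from 4 to 3.5 kb before the end and from 3.5 to 4 kb after it.

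A gene-end summit was found at 1668 of 21938 protein-coding genes (7.60%). Of these, 1558 genes had 1 summit, 102 had 2 and 8 had 3. Conversely, 1586 summits belonged to 1 gene, 88 to 2 and 1 to 3. A single summit, with a signal of 443 (pool G 241, pool H 201), belonged to 21 genes, the gamma protocadherins (such as Pcdhga1), cell adhesion genes of neurons whose transcripts share their last exons. Counting these as 1 gene left 1648 genes.

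Genes that ended within 5 kb of a convergent protein-coding neighbour had a summit more often than the others. Of 4690 such genes, 435 had one, 9.28% (8.46 to 10.1). Of the other 17248 genes, 1233 had one, 7.15% (6.77 to 7.54). The difference was 2.13 percentage points (Newcombe 95% interval 1.24 to 3.07), and 1.27 points with summits over 2500 bp from a TSS (0.487 to 2.10). The 21 gamma protocadherins that share a summit are among the genes with a convergent neighbour. Counting them as 1 gene, a reading added after the data had been seen, made the difference 1.74 points (0.862 to 2.67). In the list made from pool G alone the shares were 8.96% and 6.95%, and in that of pool H alone 8.55% and 6.66%, so the difference was 2.00 and 1.89 points. Counted by sequence rather than by gene, windows of genes with a convergent neighbour held 45.5 summits per Mb (40.9 to 50.4) and the other windows 33.0 (31.2 to 34.8), a ratio of 1.38 (1.22 to 1.55). Neighbouring genes can share a summit, so genes are not independent.

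The other genes were then divided, after the data had been seen, into 2368 with only a tandem neighbour (a gene on the same strand starting within 5 kb downstream) and 14880 with neither. Counting each summit once for every gene it belonged to, the density was 49.2 per Mb for genes with a convergent neighbour (44.8 to 53.9), 46.9 for those with a tandem neighbour only (40.6 to 53.9) and 31.2 for those with neither (29.4 to 33.1). The convergent and tandem densities did not differ beyond counting error, with a ratio of 1.05 (0.886 to 1.24). The tandem density was 1.5 times that of genes with neither neighbour (1.29 to 1.75). Both pools' own lists gave the same order of tandem over neither, with ratios of 1.58 in pool G and 1.56 in pool H, and ratios of convergent to tandem of 1.01 and 1.00. By share of genes, 7.77% of genes with a tandem neighbour only had a summit (6.72 to 8.92), 1.5 points below genes with a convergent neighbour (0.107 to 2.83). That difference was 1.10 points in the pool G list (-0.294 to 2.43), 1.12 in that of pool H (-0.245 to 2.41) and 1.30 in the second list of both pools (-0.156 to 2.69), so it exceeded counting error in the conservative list alone among these 4. In the conservative list it counts the gamma protocadherins as 21 genes with a convergent neighbour and a summit. It was not recomputed with them counted as 1 gene. Of genes with neither neighbour, 7.05% had a summit (6.64 to 7.47), 0.721 points below those with a tandem neighbour only (-0.375 to 1.94), an interval that includes 0. A median of 1386 bp was searched per gene with a tandem neighbour only, 1596 bp per gene with a convergent neighbour and 1869 bp per gene with neither. The higher density of genes with a tandem neighbour was thus seen per base, while their difference in the share of genes stayed within counting error, and the interval of the ratio of convergent to tandem genes includes equal densities.

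In each class, genes in the longest quartile of bases searched had summits more often than those in the shortest. Genes that share a summit, such as the gamma protocadherins, were each counted. In the shortest quartile, 3.75% of genes with a convergent neighbour had a summit (2.83 to 4.87), as did 2.55% with a tandem neighbour only (1.64 to 3.77) and 3.38% with neither (2.77 to 4.08). In the longest quartile the shares were 16.4% (14.1 to 18.8), 14.3% (11.1 to 18.0) and 11.6% (10.6 to 12.6). In the second quartile the order differed, with 7.28% for convergent (5.85 to 8.92), 10.4% for tandem (7.87 to 13.4) and 5.24% for neither (4.55 to 5.99). The intervals of convergent genes and of genes with neither overlapped in the first and second quartiles and were apart in the third, at 12.3% (10.5 to 14.4) and 7.01% (6.23 to 7.86), and in the longest.

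**Figure D2:**
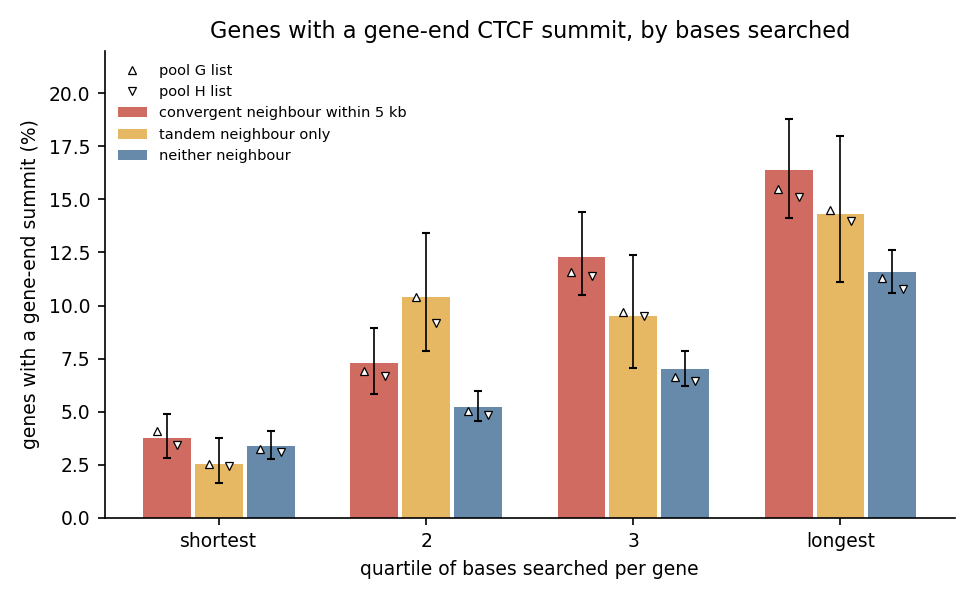
Percent of genes with a gene-end CTCF summit (vertical axis) by quartile of the bases searched per gene (horizontal axis), in genes with a convergent neighbour, a tandem neighbour only, or neither. Bars are the conservative list with exact binomial 95% intervals, and triangles are the lists of pool G and pool H alone. In the longest quartile the shares are 16.4%, 14.3% and 11.6%.

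Counted as pairs, 354 of 2443 convergent pairs had at least 1 gene-end summit, 14.5% (13.1 to 15.9), and 37 had 2 or more. Different pairs can share a gene or a summit, so pairs are not independent. The share was 12.1% for the 700 pairs whose ends overlapped (9.82 to 14.8), 12.6% for ends up to 1 kb apart (10 to 15.5), 16.6% for 1 to 2 kb (13 to 20.6) and 17% for 2 to 5 kb (14.4 to 19.9). The intervals overlapped throughout, and the median sequence searched per pair was 3309, 3091, 4048 and 3902 bp. Of the 360 summits at genes with a convergent neighbour, 106 lay between the ends, 20 in the overlap of both genes and 234 inside 1 gene or beyond the pair. The bases searched in each place were not counted, and the overlapping pairs have no stretch between their ends. Around the ends of genes with a convergent neighbour, the density was 50.5 per Mb in the last 2 kb (45.1 to 56.3) and 55.3 in the 2 kb after the end (50 to 61.1), which overlap. The 106 between the ends had a median signal of 362 and the 234 inside a gene or beyond the pair one of 532.

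Among the 5 strongest summits with a core that belonged to both genes of a pair were those of Ubap1 and Kif24 (823; pool G 437, pool H 386), Map1lc3b and Zcchc14 (814; 419 and 396), Pitx3 and Elovl3 (798; 429 and 376), and Zbtb7b and Dcst2 (793; 410.3 and 386). Kif24 encodes a kinesin motor. Map1lc3b encodes the autophagosome protein LC3B, Pitx3 a homeodomain factor of lens and midbrain neurons, and Elovl3 a fatty acid elongase. The summit of Ubap1 and Kif24 was at chr4:41390071-41390564, 209 bp before the end of Ubap1, with 219 bp between the ends of both genes. Map1lc3b and Zcchc14 overlapped by 58 bp.

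Gene-end summits were stronger than summits elsewhere. Their median signal was 406 (95% interval 375 to 438), with quartiles of 159 and 669, against 294 elsewhere (289 to 299) and 286 over the whole list. The same order held in each pool: the median of the matched pool G values was 228 against 166, and of the pool H values 187 against 132. Of the gene-end summits, 15.8% were in the highest decile of the list by signal, against 9.95% of the summits elsewhere, and 7.64% against 9.76% were in the lowest. The intervals called as peaks were wider, with a median of 407 bp against 364. The nearest other summit was 5.21 kb away at the median, against 8.24 kb elsewhere.

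Within gene ends, summits at genes with a convergent neighbour had a median of 473 (431 to 532) and the others 389 (352 to 418). Among the others, the interval of the median was 317 to 489 for genes with a tandem neighbour only, which overlaps that of convergent genes. For genes with neither neighbour it was 342 to 418, which does not overlap. The stronger signal was thus not shown to set convergent genes apart from tandem genes. In 3' UTRs the medians of convergent and of all other genes were 501 (433 to 561; n = 234) and 364 (312 to 405; n = 680). Downstream they were 447 (294 to 501; n = 126) and 417 (365 to 485; n = 636), with overlapping intervals. Whether the difference between convergent and other genes itself differed between the places was not tested. In 3' UTRs both pools gave the same order, with 278 against 205 in pool G and 227 against 165 in pool H. Downstream the order differed between the pools, with 246 against 236 in pool G and 189 against 193 in pool H. The core was found at 73.3% of summits at genes with a convergent neighbour (68.4 to 77.8) and at 72.0% of the others (69.5 to 74.4), which did not differ beyond counting error.

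**Figure D3:**
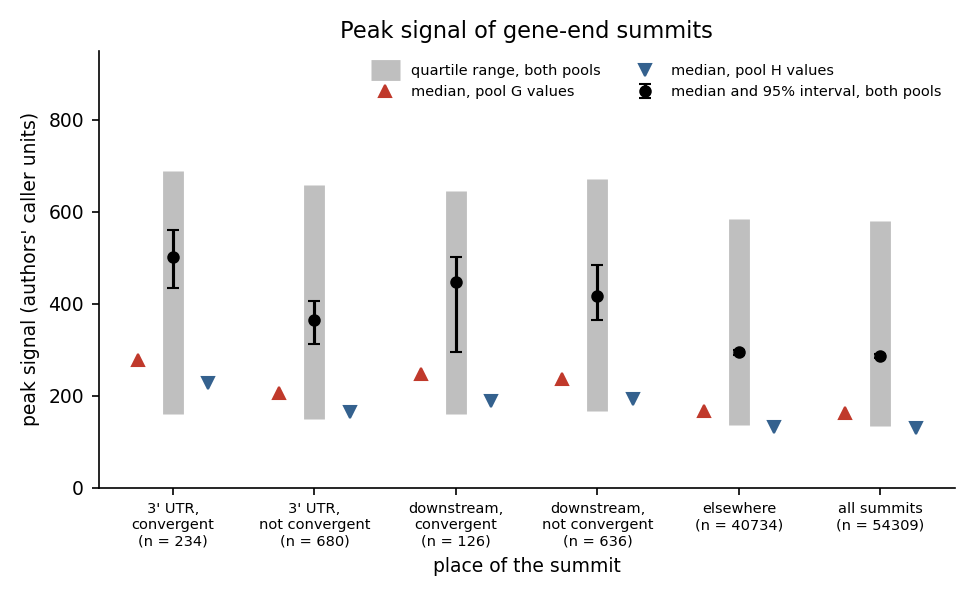
Peak signal in the caller's units (vertical axis) of gene-end summits by place and neighbour, of summits elsewhere and of all summits (horizontal axis). Dots with bars are medians with 95% intervals and grey bars the quartile range from both pools, and triangles are medians of the matched pool G and pool H values. The median is highest, at 501, in 3' UTRs of genes with a convergent neighbour.

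The strand of the core differed between 3' UTRs and downstream sequence. Among 591 summits in 3' UTRs with a core and an unambiguous gene strand, the core lay on the gene's strand in 47.7% (43.6 to 51.8). Among 564 downstream summits it did so in 58.5% (54.3 to 62.6), a difference of 10.8 percentage points (5.04 to 16.4). The difference was 9.07 points in the list of pool G (3.24 to 14.8), 9.18 in that of pool H (3.23 to 15) and 9.80 in the second list of both pools (4.22 to 15.3). The reading by distance, added after this was seen, covered all summits outside promoters and coding sequence around each gene end. It counted a summit once for every gene end near it, so the counts are not independent and their intervals are too narrow where summits repeat. The share was 45.4% in the last 1 kb of the gene (40.4 to 50.5) and 58.4% in the first 1 kb after it (54.5 to 62.3). Beyond that it was 50.9% from 1 to 2 kb (47.0 to 54.9), 57.0% from 2 to 3 kb (52.9 to 60.9) and 57.9% from 3 to 4 kb (53.6 to 62.0). By class, the last 1 kb and first 1 kb had 50.5% (43.6 to 57.4) and 60.5% (55.6 to 65.2) for genes with neither neighbour. Genes with a convergent neighbour had 38.8% (30.3 to 47.7) and 52.8% (44.3 to 61.1), and those with a tandem neighbour only 41.2% (27.6 to 55.8) and 58.0% (45.5 to 69.8). Within each class the intervals before and after the end overlapped. After the end, the interval lay wholly above equal strands only for genes with neither neighbour.

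**Figure D4:**
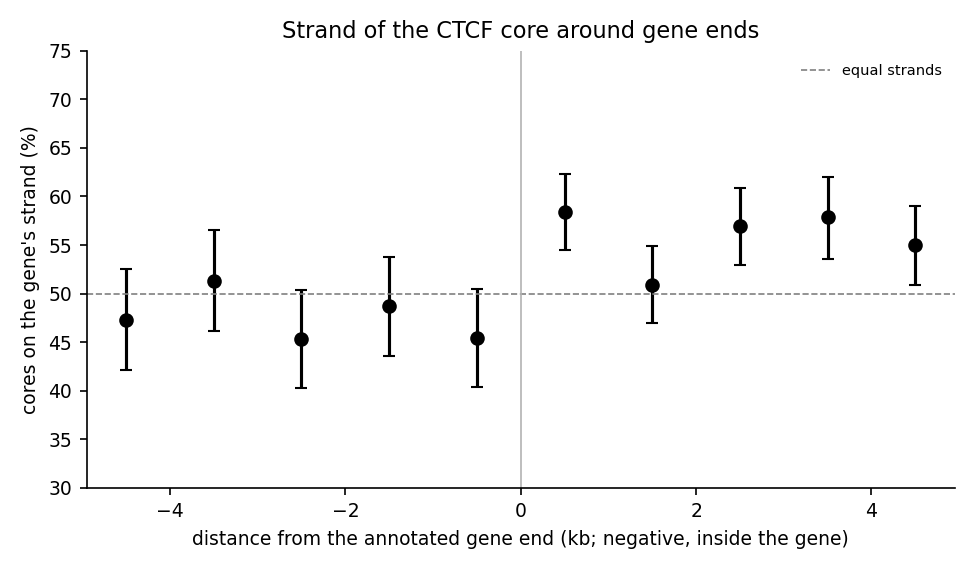
Percent of CTCF cores on the strand of the gene (vertical axis, from 30 to 75) in 1 kb bins by distance from the annotated gene end in kb (horizontal axis), with exact binomial 95% intervals, for all protein-coding genes. A core counts once for every gene end near it. The 5 bins inside the gene lie between 45.3% and 51.3%, and 4 of the 5 bins after the end lie at 55.0% or above.

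In 3' UTRs, summits lay a median of 1202 bp before the annotated gene end (quartiles 508 and 2599), and 222 of the 914 (24.3%) lay within 500 bp of it. The farthest, in Ctnna2, lay 717813 bp before the gene's end, in the 3' UTR of a shorter transcript. Downstream summits had a median distance of 496 bp (quartiles 247 and 743), with 386 of 762 (50.7%) within 500 bp. The rule bounds these distances at 1 kb, and the values are close to an even spread over that window. Of the 762, 647 lay in no gene body, 81 in that of another protein-coding gene and 34 only in that of a gene of another type. The 5 nearest to a gene end were those of Olfr545, an olfactory receptor gene (1 bp past the end; signal 104, pool G 57.3, pool H 46.0), of Pex6, a peroxisome biogenesis gene, and its convergent neighbour Gnmt (2 bp before the end of Pex6; 379, 198 and 179.7), of Mrps18a (8 bp past; 79.4, 43.2 and 35.4), of T2 (13 bp before; 422, 226 and 197) and of Nagpa (15 bp past; 645, 327 and 319). Signals near the end thus ranged from weak to strong.

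The 10 strongest gene-end summits were close together in signal. They were at Dnajc11 (874; pool G 457, pool H 412), Boc (869; 457 and 411), Ifitm3 (849; 449 and 403), Zzef1 (846; 448 and 398), Cxcl12 (846; 449 and 402), Unc119b (844; 446 and 398), Sertad1 (841; 436 and 402), Rps19 (839.9; 439 and 404), Tkt (838; 442 and 398) and Lin52 (835; 441 and 396). Dnajc11 encodes a mitochondrial DnaJ protein, Boc a Hedgehog co-receptor, Ifitm3 an interferon-induced membrane protein that restricts viral entry, and Cxcl12 a chemokine of stromal and endothelial cells. Rps19 encodes a protein of the small ribosomal subunit and Tkt transketolase. The summits of Unc119b and Sertad1 had no core within 100 bp.

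Among the 8 genes with 3 summits were Gfod1, Aak1, Cbl and Upk3b. The Gfod1 summits had signals of 539, 224 and 436. Those of Aak1, an endocytic kinase, had 145, 144 and 743, and those of Cbl, a ubiquitin ligase, 132, 141 and 583. Upk3b, a uroplakin gene, had 222, 598 and 23.8.

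The lists of heart muscle genes were read against the 7.60% of all protein-coding genes. The sarcomere list had 1 in 24 genes (Myl2), excitation and calcium handling 3 in 24 (Pln, Gja5 and Camk2d), cardiac transcription factors 1 in 24 (Irx3) and energy metabolism 0 in 24. A count of 0 in 24 allowed a share of up to 14.2% at the upper 95% bound, and the exact interval of each of these lists included 7.60%. Gja5, a connexin of atrium and conduction system, had a summit of 664 in its 3' UTR (pool G 352, pool H 313) without a core. Camk2d, a calcium-dependent kinase gene, had one of 92.5 (59.8 and 33.5). Of the excitation and calcium handling genes, 3 had a summit in the pool G list and 2 in that of pool H. Irx3, a homeobox gene, had summits of 619 (337 and 286) and 345 (216 and 123) in 1 interval past its end.

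Among genes whose products act with CTCF or at transcript ends, 1 of 15 genes of CTCF and cohesin had a summit, Mau2, part of the cohesin loader (63.4; pool G 35.3, pool H 27.0), and neither pool's own list gave the Mau2 site. Of 22 genes of cleavage and polyadenylation, 3 had one. The intervals of both lists, 0.169 to 31.9% and 2.91 to 34.9%, included the 7.60% of all genes. Papola and Papolg encode poly(A) polymerases and had signals of 462 (252 and 208) and 101 (60.6 and 42.0). Pcf11 encodes a cleavage and termination factor and had 80.5 (49.3 and 32.5). Of the cleavage and polyadenylation genes, 2 had a summit in the pool G list and 3 in that of pool H.

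For markers of other cell types too, every list's interval included the 7.60% of all genes. The fibroblast and immune lists had 0 in 12 each, the endothelial list 1 in 12 (Cdh5), smooth muscle and pericyte 2 in 10 (Acta2 and Cspg4, the latter in neither pool's own list), neurons 1 in 16 (Rbfox3), hepatocytes 1 in 15 (Pck1) and housekeeping 2 in 18 (Gusb among them). Imprinted genes, which are expressed from 1 parental allele, had 1 in 27 (Magel2). Strong sites lay at genes known from other tissues: the summit of Pck1, a gluconeogenic enzyme of liver, had 697 (pool G 378, pool H 320.1), that of Rbfox3, a neuronal splicing factor, 645 (348 and 298), that of Magel2 578 (321 and 259.6), and that of Acta2, smooth muscle actin, 615 (329 and 289). That of Gusb, a lysosomal enzyme, had 659.9 (347 and 319).

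The matched values of the pools were close, in members of a list that was itself thresholded on reproducibility between the pools. The Spearman correlation of the matched pool G and pool H values was 0.969 over the 1676 summits, which share their libraries, and the median ratio of G to H was 1.20, against 1.23 elsewhere. Of the 1676, 15 summits were more than 2-fold from the median ratio, against 354 of the 40734 elsewhere. The correlation elsewhere was 0.963, so the agreement of the pools was much the same there. In 16 members the combined signal was below one of its own pool values (median combined signal 28.6), and 13 of these shared their interval with another member. The 3 weakest members, among them those at Ssr3 (21.1) and Tfam (11.0), were of this kind: the Tfam summit carried pool values of 384 and 339.9. Pool values are matched by interval in the deposited list, so for such summits they need not be the summit's own.

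**Figure D5:**
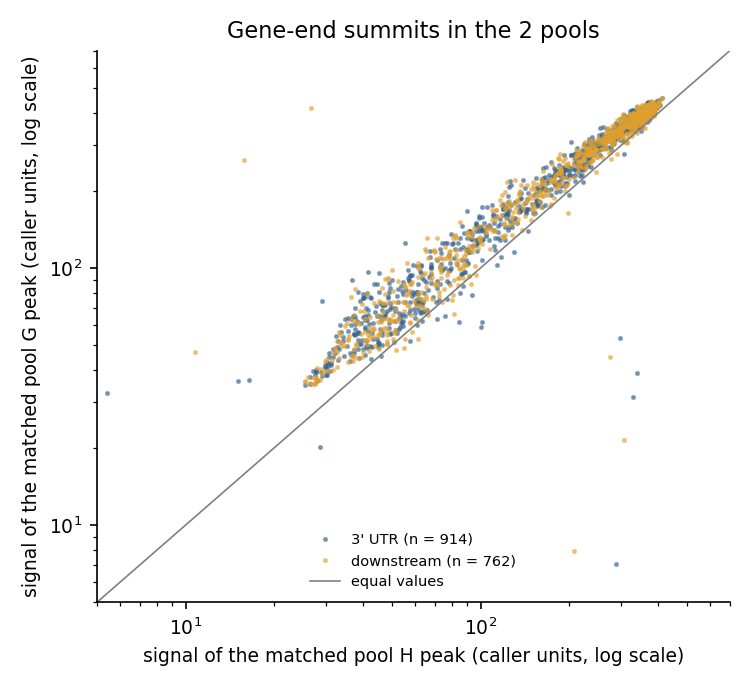
Signal of the matched peak in pool G (vertical axis) against pool H (horizontal axis), both in the caller's units on log scales, for the 914 summits in 3' UTRs and the 762 downstream. The line marks equal values. Most points lie just above it, at a median ratio of 1.20, and the few far from it include the secondary summits.

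Of the 1676 summits, 91.3% lay in a peak of the pool G list, 90.1% in one of pool H, 85.7% in both and 72 in neither. The whole list was much the same, with 91.4%, 89.6%, 85.3% and 2381 of 54309 in neither. The 72 gene-end summits in neither fell at both extremes of signal: 56 were in the lowest decile of members (99.8 and below) and 16 in the highest (758 and above). In the highest decile, 75.6% were in the pool G list and 69.6% in that of pool H, while from the fourth to the seventh decile all were in both. The strongest, at Dnajc11, was in neither list, although its matched values were 457 and 412. Likewise, 421 candidates in all, anywhere in the genome, had a combined signal at or above the members' median of 406 but did not reach the authors' threshold for irreproducibility. Of these, 18 lay at gene ends and are not members, while gene ends held 3.09% of all listed summits. The signals of the 18 ran from 782 to 906. The strongest of them, chosen after their values were seen, were in the 3' UTR of Doc2b, a calcium sensor of exocytosis (906; pool G 473, pool H 438), and downstream of Ivd, isovaleryl-CoA dehydrogenase (898; 475 and 430.3). The top of the signal range is thus incomplete in the thresholded lists.

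At the limits of the rule, the summit nearest to 1 kb from a TSS that was kept was that of Dmpk (1003 bp; signal 614), and the nearest left out was at Hyou1 (999 bp; 716). For the downstream limit they were Bag4 (1000 bp; 254) and Umodl1 (1001 bp; 756), and for the distance between convergent ends Nmrk2 (4973 bp; 679) and Mrs2 (5018 bp; 552).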

How the data were processed

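Peak lists of CTCF ChIP-seq on mm10 were used as deposited. The authors' control alignment was not analysed here. The names of aligner and caller were not given in the sources used here. Per the labels' readme texts, the authors thresholded the lists by the irreproducible discovery rate (IDR), from each pool and from both, and the lowest scaled IDR in the lists stands for 0.05. The deposited score columns, the caller's signal and the scaled IDR, carry no stated unit. The authors' deposited signals of matched calls gave the pool values: of the first calls, 71.7% matched pool H records exactly, and of the second calls, 77.3% matched pool G records.

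Genes came from GENCODE M21 and sequence from GRCm38.p6. Summits were placed with Python 3.11.15, numpy 2.4.6, pandas 2.3.3 and scipy 1.17.1. Searched bases excluded runs of N, bases within 1 kb of a TSS and coding sequence. Shares have exact binomial, densities exact Poisson, their ratios exact conditional and differences Newcombe 95% intervals. No significance test was run. The scripts were tested on simulated data.

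Members, lists and rules were chosen with earlier results of these data known. Named were the 10 strongest summits, the 5 strongest with a core at both ends of a convergent pair, the 5 genes with the most summits, up to 2 per gene list, the 5 nearest a gene end, the 3 weakest, and those just inside and outside each limit. Camk2d, Pcf11, Ctnna2, Doc2b, Ivd and the gamma protocadherins were added. Some results under this rule are not reported here. Sequences on chromosome 18 are not shown.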

Additional observations from a re-analysis of the deposited data

How the results depend on the processing

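Of 75 recomputed values, 66 stayed within the main 95% interval (within 1.5 times for the count of members), 9 moved and none reversed. The count of members ran from 1300 (500 bp downstream) to 2397 (2000 bp downstream). The density ratios to elsewhere ran from 1.75 to 1.89 in 3' UTRs and from 2.41 to 2.70 downstream, and the ratio of convergent to other windows from 1.34 to 1.52. The excess of genes with a convergent neighbour was 1.27 points with summits over 2500 bp from a TSS, and 7.34 points when each pair counted once, where a pair offers the windows of both genes. Added after seeing the data, it was 1.5 points against genes with a tandem neighbour only, an excess whose interval includes 0 in the second list and in each pool's list. Counting the gamma protocadherins as 1 gene, also added then, made the excess over all other genes 1.74 points (0.862 to 2.67). The share with a core was 69.8% in the second list, 36.1% with no mismatch, and 69.0 to 72.3% in the pools' own lists. The soft-masked share was 19.2% in the second list, GC content over 100 bp was 52.5%, and the ratio of widths to elsewhere was 1.07 in the second list and 1.04 to 1.08 in the pools' lists. The cause of the differences between lists was not tested. No paired analysis was possible because the series has 1 group. Depth is unknown, the intervals cover counting error only, and 2 pools give no more than a range between replicates.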
